A study of Arabidopsis thaliana with 12 samples.

Results

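UDP-glycosyltransferases (UGTs) transfer a sugar from a nucleotide sugar to a small molecule. The genes described here are the Arabidopsis thaliana genes whose deposited name is UGT followed by a digit, except those that act in flavonoid, anthocyanin or hydroxycinnamate glycosylation and were left out by name. Of 106 such names, 9 were left out, and the 10th left-out gene, UGT79B1, is deposited under another name, A3G2XYLT. Flavonoid-related members that were not left out by name stayed in, namely UGT71C1, UGT73B1, UGT73B2, UGT78D4, UGT79B2, UGT79B3, UGT79B6 and UGT84A4. The choice used names and no measured values, though earlier results of these data were known when it was made. It gave 97 of the 32833 genes in the files, and the 73 with at least 1 TPM (the deposited length- and library-scaled transcript unit) in at least 3 of the 12 libraries were tested. One member is listed as UGT1, which the files describe as UGT75B1, and it keeps the name UGT1 here.

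RNA sequencing was done on 10-day-old whole seedlings grown under a photoperiod with 16 h of light and 8 h of darkness, in 4 groups of 3 libraries that the labels call biological replicates prepared independently from germination on. The groups were uvr8, a mutant of the UV-B photoreceptor UVR8, given UV-B of 5 µmol m-2 s-1 on top of white light; Col-0, the common wild-type accession, under the same UV-B; Col-0 with 50 µM abscisic acid (ABA) in white light; and Col-0 in white light. Each treatment lasted 3 h, and the 2 UV-B groups and the white-light group received mock treatment in place of ABA. The labels do not name the uvr8 allele. No library of uvr8 in white light was analysed here, so genotype and UV-B cannot be told apart where irradiated uvr8 is set against white-light Col-0.

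UGTs end many plant pathways. Glucose attached to a hormone such as auxin, cytokinin, salicylate or ABA usually inactivates or stores it, and glucose on a toxin or a defence compound makes it soluble and lets it enter the vacuole. The sugar donors, UDP-glucose and its relatives, are made in the cytosol and Golgi by a small set of enzymes. Many UGT genes lie side by side in tandem arrays.

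The UVR8 transcript was at 20.8, 23.6 and 21.1 TPM in uvr8 under UV-B, against 66.9, 73.8 and 71.1 TPM in Col-0 under UV-B, a difference of -1.65 ± 0.07 in log2(TPM + 1) (SE, limma adjusted p = 5.22e-09). It was between 89.96 and 98.8 TPM in Col-0 with ABA and between 105.6 and 107 TPM in Col-0 in white light. TPM keeps no read depth, so the depth behind each value is unknown. Members are compared below as differences in log2(TPM + 1) from limma with Benjamini-Hochberg adjustment over the 19922 genes tested, and a member is called higher or lower at an adjusted p below 0.05. On this scale the change of a gene at about 1 TPM or less is understated. In whole seedlings, a change in the number of cells of a type and a change in RNA per cell cannot be told apart.

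Together the 97 members made up 2314 ± 41 TPM in uvr8 under UV-B, 2011 ± 89 TPM in Col-0 under UV-B, 2759 ± 190 TPM in Col-0 with ABA and 1652 ± 61 TPM in Col-0 in white light (SD, n = 3 each). The libraries of these 4 groups did not overlap in this sum. The 10 genes left out by name summed to 208 ± 17 TPM in uvr8 under UV-B, 1930 ± 122 TPM in Col-0 under UV-B, 262 ± 14 TPM with ABA and 177 ± 0.38 TPM in white light, so in Col-0 under UV-B they came close to the sum of the 97 members. In each group the 8 highest members held between 48.0% and 55.2% of the members' sum. UGT79B2 alone was 19.8% of it in Col-0 under UV-B and 4.24% in Col-0 in white light. UGT74F2 was 12.9% of it in Col-0 with ABA and 6.18% in white light. The sum in Col-0 under UV-B exceeded that in white light by 359.2 TPM, and UGT79B2 alone, a flavonoid-related member kept in, gained 327.7 TPM. Among the other flavonoid-related members, UGT73B1 and UGT79B3 averaged 60.1 and 24.2 TPM under UV-B and 34.4 and 0.07 TPM in white light. UGT73B2 went the other way, with 29.0 and 38.2 TPM. The higher sum under UV-B therefore does not show a rise of the members that are not flavonoid-related. Other members went both ways, with differences of means of 112.9 TPM in UGT74D1 and -54.15 TPM in UGT74F2.

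**Figure D1:**
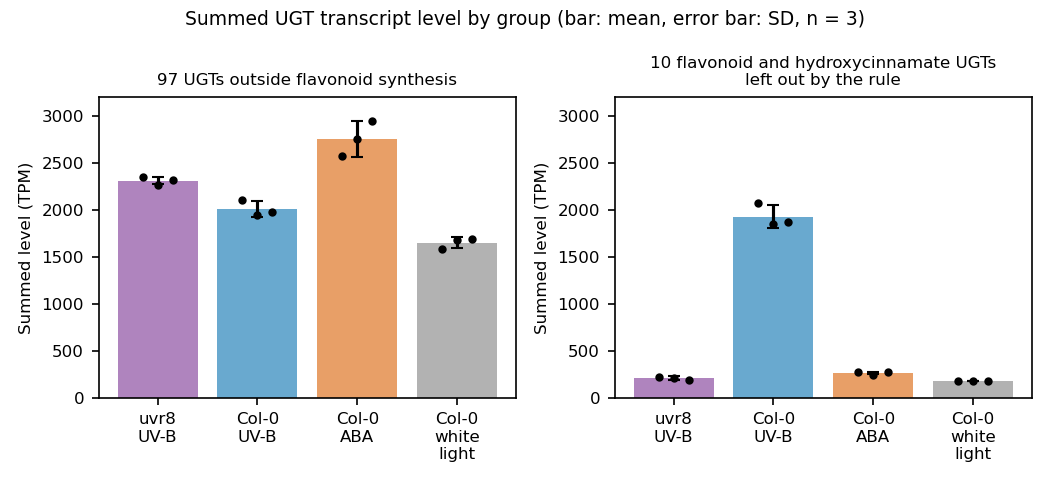
Summed transcript level in TPM on linear axes from 0, for the 97 members on the left and the 10 genes left out by name on the right. The 97 include the flavonoid-related members kept in, UGT79B2 among them. Bars are group means, error bars the SD over 3 libraries and points the libraries. The sum of the members is highest with ABA at 2759 TPM, while the sum of the 10 others is high in Col-0 under UV-B alone, at 1930 TPM. Not each of the 10 follows that sum. UGT73C6 averaged 39.3 TPM in uvr8 and 41.1 TPM in Col-0 under UV-B, and UGT84A3 was highest with ABA, at 110.8 TPM.

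The highest member over all libraries was UGT85A1, which glucosylates the cytokinin zeatin, with a mean of 185 TPM. Over the 12 libraries the tested members' means ran from 0.81 to 185 TPM, with a median of 12.2 TPM, and 40 of 73 were at 10 TPM or more. Of the 24 members below the filter, 5 were listed at 0 in every library and none passed 1.47 TPM. The nearest below it was UGT85A7, which reached 1 TPM in 2 libraries and ran from 0.23 to 1.39 TPM. UGT71C1 and UGT71D2 reached it in 1 library each, with highest values of 1.02 and 1.47 TPM. Just inside, UGT76E6, UGT78D4, UGT79B3, UGT89B1 and UGT91A1 reached 1 TPM in exactly 3 libraries. Of these 5, all but UGT76E6 passed through a single group, in which they had to be higher. Their separation of groups and adjusted p below are thus partly set by the filter and are no independent support. For the same reason the counts below describe the tested members and not the family.

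In Col-0, members were called in both directions after 3 h of UV-B. UGT91A1, UGT79B3 and UGT78D4 reached 6 to 28 TPM under UV-B and were near 0 TPM in white light, while UGT79B2, UGT73C1, UGT73C5, UGT90A1 and UGT74D1 rose above a measurable white-light level. UGT76B1 and UGT74F2, which both glucosylate salicylate, fell. Of the 73 tested, 17 were higher and 28 lower, that is 23.3% and 38.4%, against 12.3% of all genes tested called higher and 27.8% called lower. By at least 1 log2 unit 11 were higher and 7 lower, against 3.96% and 2.62% of all genes tested. With TMM-style scaling of the TPM, which centres the bulk of genes on no change, 19 members were higher and 21 lower, against 18.9% and 17.3% of all genes tested.

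UGT91A1, for which no substrate is assigned here, was at 28.1, 25.1 and 27.8 TPM in Col-0 under UV-B and at 0.17, 0.08 and 0.04 TPM in white light, a log2(TPM + 1) difference of 4.67 ± 0.14 (SE, adjusted p = 2.98e-10). UGT79B3 was at 19.1, 26.3 and 27.4 TPM under UV-B and at 0.13, 0.04 and 0.04 TPM in white light (4.54 ± 0.17, adjusted p = 1.37e-09). Both genes reached 1 TPM in these UV-B libraries alone and were tested only because of them. Their separation from white light was therefore partly set by the filter. The neighbour of UGT79B3, UGT79B2, was at 409, 407 and 377 TPM under UV-B and at 76.9, 65.4 and 67.8 TPM in white light, a 5.68-fold difference of means (2.49 ± 0.09, adjusted p = 7.75e-10). UGT79B2 and UGT79B3 add sugars to anthocyanins and have been linked to cold, salt and drought tolerance, and the choice by name kept them in. Their exons are 91.6% identical over 1660 bases, so reads can be split between them, which was not tested. In white light UGT79B3 was at or below 0.13 TPM and UGT79B2 averaged about 70.0 TPM.

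UGT73C1, which acts on cytokinins and on the explosive TNT, was at 83.0, 83.5 and 80.9 TPM under UV-B and at 6.5, 6.75 and 8.32 TPM in white light, 11.5 times higher (3.36 ± 0.10, adjusted p = 1.91e-10). UGT73C5, which glucosylates brassinosteroids and the fungal toxin deoxynivalenol, averaged 78.3 ± 6.6 TPM under UV-B and 14.3 ± 1.5 TPM in white light (SD, n = 3 each), 5.46 times higher (adjusted p = 1.65e-07). Both were well separated from white light in every library. UGT74D1, an auxin and oxidised-auxin glucosyltransferase, was at 184, 166 and 169 TPM under UV-B and at 59.95, 57.4 and 62.9 TPM in white light (1.51 ± 0.08, adjusted p = 3.47e-08). UGT90A1 averaged 32.0 ± 2.5 TPM under UV-B and 6.30 ± 0.83 TPM in white light, a 5.09-fold difference (adjusted p = 4.37e-06). UGT78D4 lies between 2 flavonol glycosyltransferase genes left out by name, UGT78D3 and UGT78D2. It was at 5.99, 6.20 and 7.64 TPM under UV-B and at 0.47, 0.38 and 0.27 TPM in white light (adjusted p = 1.46e-07). UGT84A4 averaged 6.38 ± 0.86 TPM under UV-B and 4.01 ± 0.74 TPM in white light and was called higher. Of the tested flavonoid-related members kept in, UGT73B1, UGT78D4, UGT79B2, UGT79B3 and UGT84A4 were called higher with UV-B and UGT73B2 lower. Of all genes tested 12.3% were called higher and 27.8% lower.

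The falls under UV-B included members with roles in defence and lignin. UGT76B1, which glucosylates salicylate, isoleucic acid and N-hydroxypipecolic acid, was at 25.5, 19.5 and 22.6 TPM under UV-B and at 47.4, 72.2 and 67.2 TPM in white light (-1.41 ± 0.19, adjusted p = 9.24e-05). UGT72E1, which glucosylates coniferyl and sinapyl aldehyde, was at 21.8, 22.3 and 23.8 TPM under UV-B and at 57.6, 54.2 and 65.5 TPM in white light (-1.34 ± 0.13, adjusted p = 1.02e-05). No library of one group reached the other in either gene. UGT85A2 averaged 21.5 ± 1.2 TPM under UV-B and 54.7 ± 0.97 TPM in white light (-1.31 ± 0.09, adjusted p = 4.86e-07). UGT74F2, which makes the glucose ester of salicylate, averaged 47.9 ± 5.1 TPM under UV-B and 102 ± 9.7 TPM in white light (-1.08 ± 0.11, adjusted p = 1.15e-05). UGT89A2, a xylosyltransferase of dihydroxybenzoates, averaged 6.73 ± 0.22 TPM under UV-B and 14.2 ± 1.3 TPM in white light. UGT88A1, UGT76C5 and UGT85A4 fell by 0.87, 0.99 and 1.32 in log2(TPM + 1).

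**Figure D2:**
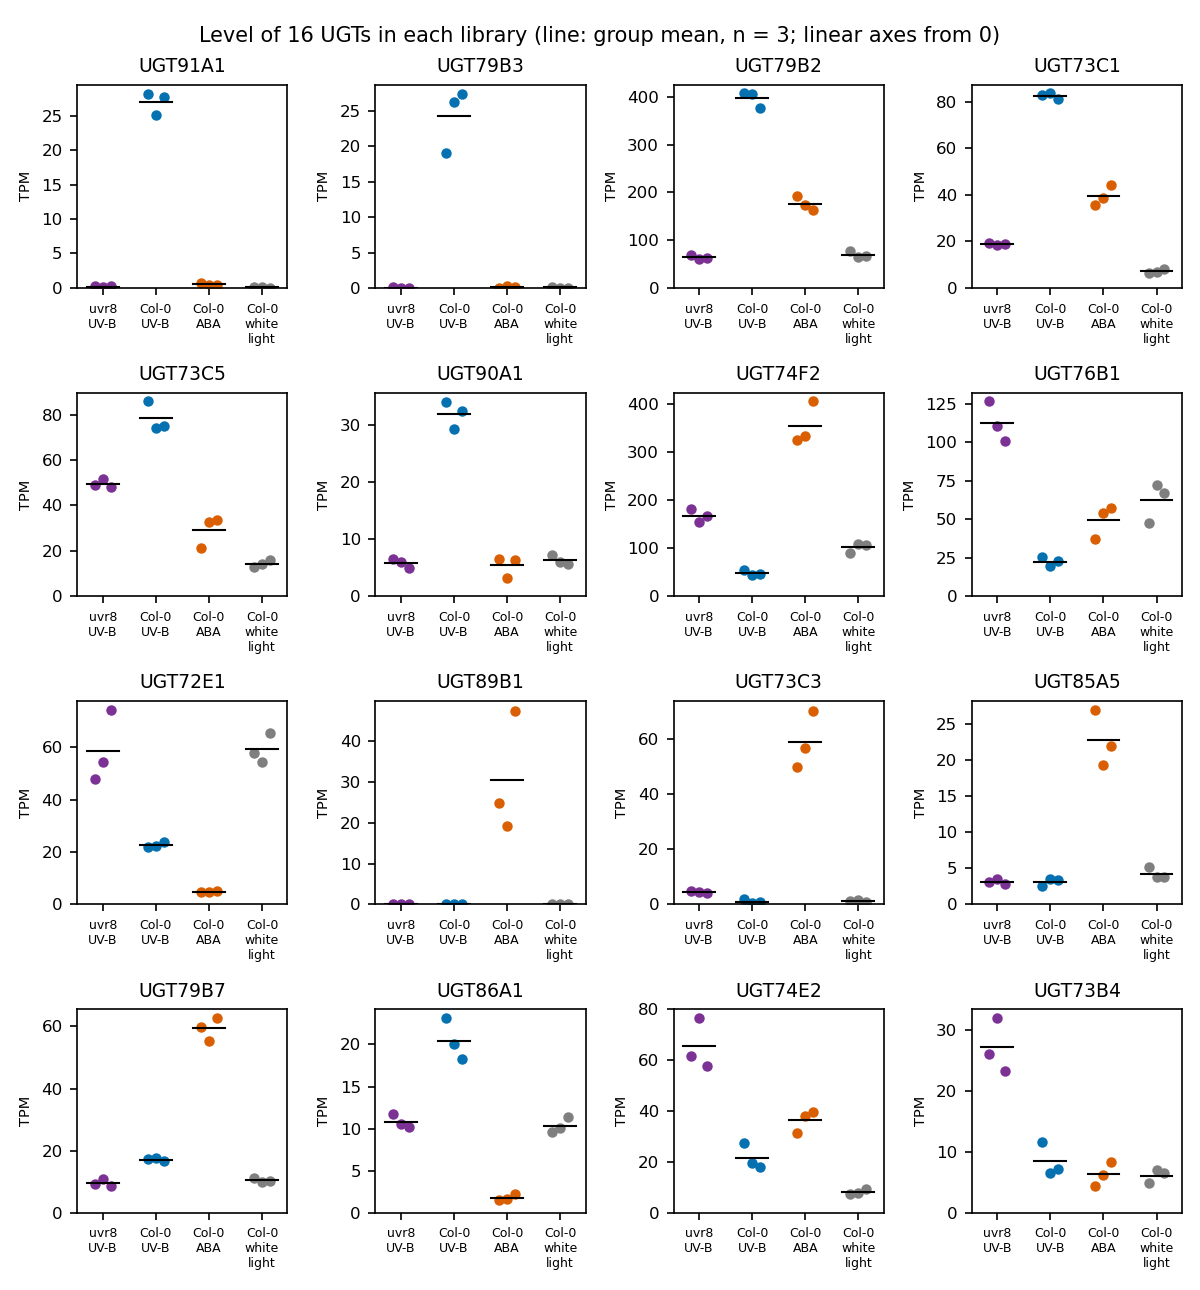
Level in TPM of 16 members in each of the 12 libraries, on linear axes from 0, with a line at each group mean of 3 libraries. UGT91A1, UGT79B3 and UGT90A1 are high in Col-0 under UV-B alone, UGT89B1, UGT73C3 and UGT85A5 are high with ABA alone, and UGT74E2, UGT73B4 and UGT76B1 are highest in uvr8 under UV-B.

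The promoters of 5 raised members, which are not the 5 with the largest UV-B differences, are shown for the core ACGTG. The light-regulated factor HY5 and the ABA-responsive bZIP factors are known to bind this core. Each sequence is the 250 bases before the annotated gene start on the gene's own strand in TAIR10.1, none of them lies in an exon of another gene, and capitals mark ACGTG or its reverse complement CACGT. UGT91A1 lies at chr2:9592706-9592955 on the plus strand, UGT79B3 at chr4:13765065-13765314 on the minus strand, UGT90A1 at chr2:7316539-7316788 on the plus strand, UGT79B7 at chr4:6017771-6018020 on the plus strand and UGT74E2 at chr1:1704839-1705088 on the minus strand.
UGT91A1: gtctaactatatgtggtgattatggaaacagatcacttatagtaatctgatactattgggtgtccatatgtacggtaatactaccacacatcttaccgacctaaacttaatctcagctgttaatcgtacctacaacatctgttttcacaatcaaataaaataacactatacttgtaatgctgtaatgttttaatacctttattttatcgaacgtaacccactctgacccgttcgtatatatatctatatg
UGT79B3: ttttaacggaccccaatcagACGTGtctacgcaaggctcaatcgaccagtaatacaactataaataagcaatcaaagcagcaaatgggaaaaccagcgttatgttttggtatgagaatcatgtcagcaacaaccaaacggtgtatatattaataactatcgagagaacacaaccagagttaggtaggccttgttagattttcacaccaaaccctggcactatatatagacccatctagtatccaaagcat
UGT90A1: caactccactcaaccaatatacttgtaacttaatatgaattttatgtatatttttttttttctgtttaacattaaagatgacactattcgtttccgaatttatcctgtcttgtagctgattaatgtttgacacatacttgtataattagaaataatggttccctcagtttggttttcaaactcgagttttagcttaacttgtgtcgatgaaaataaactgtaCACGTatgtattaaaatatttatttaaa
UGT79B7: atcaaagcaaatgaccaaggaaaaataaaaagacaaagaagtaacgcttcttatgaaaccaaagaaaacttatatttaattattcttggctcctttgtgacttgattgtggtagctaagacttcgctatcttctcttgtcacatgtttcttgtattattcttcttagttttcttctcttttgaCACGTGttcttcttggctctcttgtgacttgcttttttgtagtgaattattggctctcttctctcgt
UGT74E2: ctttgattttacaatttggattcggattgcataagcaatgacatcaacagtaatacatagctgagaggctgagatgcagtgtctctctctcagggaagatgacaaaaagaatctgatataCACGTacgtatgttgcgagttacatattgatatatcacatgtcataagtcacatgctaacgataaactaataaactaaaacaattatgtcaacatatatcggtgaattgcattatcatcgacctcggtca
The member with the largest UV-B difference, UGT91A1, has no ACGTG on either strand of this window. UGT73C1, UGT79B2, UGT73C5, UGT78D4 and UGT74D1, also among the largest rises but not shown, have none in their windows either. In UGT79B7 the capitals spell the G-box CACGTG, which is its own reverse complement and holds ACGTG on both strands, and UGT79B7 rose with UV-B and with ABA. ACGTG on either strand was found in 9 of the 17 members higher with UV-B (52.9%), 7 of the 28 lower (25%) and 13 of the 35 higher with ABA (37.1%). It was found in 25 of the 73 tested members (34.2%) and in 23.3% of the 19804 tested genes with such a window. CACGTG was in 1 of the 17 members higher with UV-B, against 7.37% of all tested genes. TACGTG or its reverse complement CACGTA, which also holds the core, was in 4 of the 17 (23.5%), against 6.62% of all tested genes. A match in these windows is a description of letters and not of a bound site.

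Under the same UV-B, uvr8 and Col-0 differed in most members. The genes that rose with UV-B in Col-0 and stood near 0 in white light were near 0 in uvr8 too, whereas UGT76B1, UGT74F2, UGT1, UGT73B4 and UGT74E2 were higher in uvr8 than in Col-0. Of the 73 tested members 38 were higher in uvr8 and 15 lower, that is 52.1% and 20.5%, against 32.8% and 11.1% of all genes tested. By at least 1 log2 unit 20 were higher and 8 lower, against 4.04% and 3.51% of all genes tested. With TMM-style scaling 36 were higher and 17 lower, against 18.6% and 19% of all genes tested. This comparison and the UV-B comparison share the Col-0 UV-B libraries, so opposite signs in them are not independent.

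Among the lower members, UGT91A1 was at 0.23, 0.08 and 0.22 TPM in uvr8 and at 25 to 28 TPM in Col-0 (-4.57 ± 0.14, adjusted p = 4.17e-10). UGT79B3 was at 0.18, 0 and 0 TPM in uvr8, against 19.1, 26.3 and 27.4 TPM in Col-0 (adjusted p = 1.49e-09). UGT79B2 was at 69.7, 61.0 and 62.8 TPM in uvr8, against 409, 407 and 377 TPM in Col-0 (-2.61 ± 0.09, adjusted p = 5.67e-10). All 3 were within 0.12 log2 units of Col-0 in white light. UGT78D4 and UGT90A1 were lower by -2.54 ± 0.15 and -2.28 ± 0.20. UGT73C1, UGT74D1 and UGT71C4 were lower by -2.07 ± 0.10, -1.14 ± 0.08 and -1.10 ± 0.07.

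The members highest above Col-0 included enzymes of salicylate and of an auxin precursor. UGT76B1 was at 127, 110.3 and 100.9 TPM in uvr8, against 25.5, 19.5 and 22.6 TPM in Col-0, 5.00 times higher (2.27 ± 0.19, adjusted p = 1.95e-06). UGT74F2 was at 181, 154 and 167 TPM in uvr8, against 53.8, 44.3 and 45.8 TPM in Col-0, 3.49 times higher (adjusted p = 1.51e-07). UGT1, whose product glucosylates p-aminobenzoate, was at 151, 129 and 152 TPM in uvr8, against 44.2, 40.2 and 41.9 TPM in Col-0 (1.75 ± 0.09, adjusted p = 3.66e-08). These ranges did not overlap. UGT91C1 averaged 6.18 ± 1.06 TPM in uvr8 and 1.02 ± 0.15 TPM in Col-0. UGT74E2, which glucosylates indole-3-butyric acid, an auxin precursor, averaged 65.4 ± 9.9 TPM in uvr8 and 21.7 ± 5.1 TPM in Col-0, 3.01 times higher (adjusted p = 1.21e-05). Its neighbour UGT74E1 averaged 16.9 ± 3.0 TPM in uvr8 and 5.86 ± 1.02 TPM in Col-0 (adjusted p = 6.85e-05).

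Set against Col-0 in white light, uvr8 under UV-B had 20 of 73 tested members higher and 1 lower, that is 27.4% and 1.37%, against 3.83% and 1.28% of all genes tested. By at least 1 log2 unit 12 were higher and none lower by limma, against 0.878% and 0.0753% of all genes tested. UGT74E2 was highest in difference, at 61.8, 76.6 and 57.9 TPM in uvr8 under UV-B and 7.32, 7.77 and 9.25 TPM in Col-0 in white light (2.86 ± 0.16, adjusted p = 1.81e-06), 8.06 times higher. UGT74E1 averaged 16.9 ± 3.0 TPM in uvr8 under UV-B and 1.75 ± 0.58 TPM in white light (2.71 ± 0.18, adjusted p = 6.74e-06). UGT1 was 2.81 times and UGT74F2 1.64 times higher. The 1 lower member, UGT85A2, averaged 41.0 ± 2.5 TPM in uvr8 under UV-B and 54.7 ± 0.97 TPM in white light (adjusted p = 0.0256), and it was not called when any 1 of the 6 libraries was left out.

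Counted by family, a grouping looked at after the values were seen, the UGT73 genes were called most often in that comparison. They include enzymes that glucosylate TNT, fungal toxins, brassinosteroids and flavonoids. Of the 11 tested UGT73 members, 10 were higher in irradiated uvr8 than in white-light Col-0 and 8 of them by at least 1 log2 unit, and UGT73C7 was not called (0.56 ± 0.19, adjusted p = 0.13). The call of UGT73D1 (0.82 ± 0.18, adjusted p = 0.0218) was lost without uvr8 replicate 1 or 2 or white-light replicate 1 or 3. The median difference of the 11 was 1.23 log2 units, against 0.15 over the 73 members and 0.04 over all genes tested. UGT73B4, a TNT glucosyltransferase, was at 26.1, 32.1 and 23.4 TPM in uvr8 under UV-B, 11.7, 6.55 and 7.11 TPM in Col-0 under UV-B and 4.85, 6.96 and 6.52 TPM in white light, and its Col-0 UV-B and white-light libraries overlapped. UGT73B5, a member tied to redox balance in the response to bacteria, averaged 29.3 ± 2.4 TPM in uvr8 under UV-B, 9.18 ± 2.46 TPM in Col-0 under UV-B and 9.94 ± 1.21 TPM in white light. UGT73B3, also tied to the response to bacteria, averaged 25.3 ± 0.58 TPM in uvr8 under UV-B, 8.17 ± 1.89 TPM in Col-0 under UV-B and 9.94 ± 1.34 TPM in white light. UGT73B2, a flavonol glucosyltransferase in vitro, averaged 86.2 ± 5.8 TPM in uvr8 under UV-B, 29.0 ± 3.3 TPM in Col-0 under UV-B and 38.2 ± 3.2 TPM in white light. UGT73B1 was high in both UV-B groups, at 55.3 ± 3.8 TPM in uvr8 and 60.1 ± 2.8 TPM in Col-0, against 34.4 ± 1.7 TPM in white light. UGT73B4 and UGT73B5 share 255 exon bases on the same strand, so their values are not independent.

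**Figure D3:**
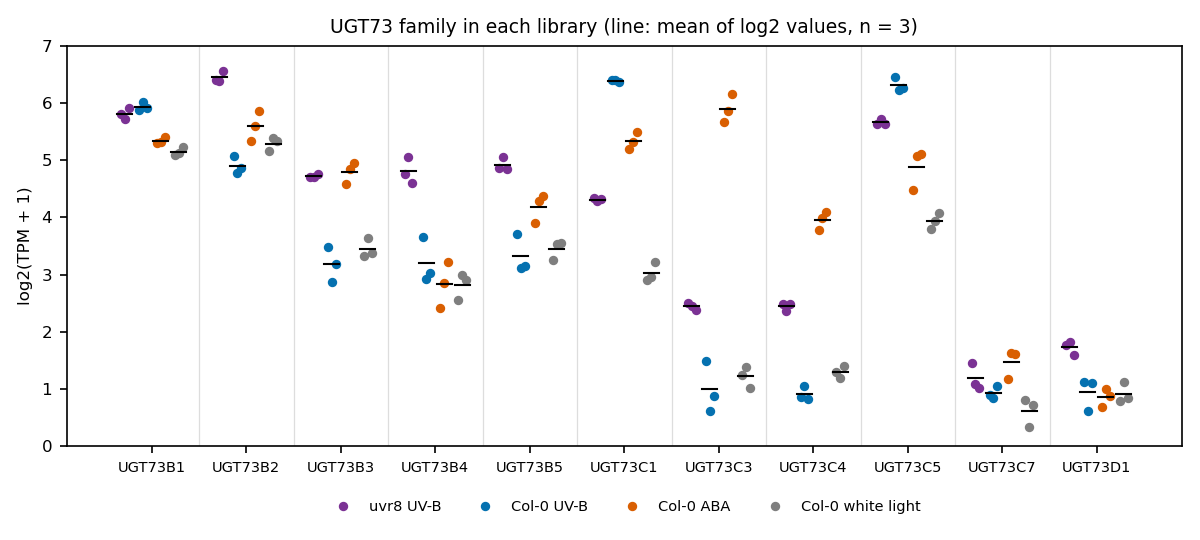
Level of the 11 tested UGT73 members as log2(TPM + 1) in each library, with a line at the mean of the 3 libraries of each group. UGT73B2 to UGT73B5 are higher in uvr8 under UV-B than in Col-0 under UV-B or in white light, UGT73C1 and UGT73C5 are highest in Col-0 under UV-B, and UGT73C3 and UGT73C4 are highest with ABA.

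ABA raised more members than it lowered in Col-0. Of the 73 tested members 35 were higher with ABA and 16 lower, that is 47.9% and 21.9%, against 15.2% and 39.4% of all genes tested. By at least 1 log2 unit 17 were higher and 4 lower, against 5.89% and 5.38% of all genes tested. With TMM-style scaling 39 were higher and 10 lower, against 23.8% and 21.7% of all genes tested. UGT89B1, UGT73C3, UGT73C4, UGT76E12, UGT79B7 and UGT85A5 led the rises, and UGT72E1 and UGT86A1 the falls.

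UGT89B1 was listed at 24.7, 19.1 and 47.3 TPM with ABA and at 0 in all 9 other libraries. No other of the 32833 genes was listed at 0 in those 9 libraries and above 5 TPM in all 3 ABA libraries. That pattern was drawn from the values of UGT89B1 itself, so standing alone in it is a description and no test. UGT89B1 also passed the filter through the ABA group alone. A 0 in a TPM table can be a failed estimate, so no fold is given, and 243 of the 250 bases before the annotated start of UGT89B1 lie in exons of another gene. UGT73C3 was at 49.8, 56.8 and 70.2 TPM with ABA and at 1.38, 1.63 and 1.04 TPM in white light, 43.7 times higher (4.67 ± 0.20, adjusted p = 6.2e-09). Its neighbour UGT73C4, 90.9% identical over 1537 exon bases, was at 12.8, 14.9 and 16.1 TPM with ABA and at 1.46, 1.29 and 1.64 TPM in white light, 9.97 times higher (adjusted p = 1.15e-08). Reads may be split between these neighbours, and in both every ABA library was above every other library.

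UGT76E12 was at 99.6, 113 and 124 TPM with ABA and at 17.5, 19.03 and 20.3 TPM in white light, 5.92 times higher (adjusted p = 6.65e-08), and UGT76E11 averaged 87.4 ± 7.0 TPM with ABA and 29.8 ± 1.9 TPM in white light (adjusted p = 5.99e-08). UGT79B7 was at 59.95, 55.2 and 62.8 TPM with ABA, against 17.3, 17.6 and 16.5 TPM under UV-B and 11.2, 9.93 and 10.3 TPM in white light (2.39 ± 0.09 for ABA, adjusted p = 2.9e-09). UGT85A5, which has been tied to salt tolerance in transgenic tobacco, was at 26.9, 19.3 and 21.9 TPM with ABA and at 5.22, 3.78 and 3.82 TPM in white light (2.17 ± 0.16, adjusted p = 4.29e-07). In each of these genes the groups were fully separated. In TPM, the largest gains over white light were in UGT74F2, at 326, 334 and 406 TPM with ABA and 90.9, 109 and 106 TPM in white light (adjusted p = 9.87e-08), and in UGT1, at 209 ± 23 TPM with ABA and 51.3 ± 2.0 TPM in white light (adjusted p = 9.55e-09). UGT72B1, which glucosylates monolignols and chlorinated pollutants, averaged 152 ± 8 TPM with ABA and 58.5 ± 1.1 TPM in white light (1.36 ± 0.08, adjusted p = 4.82e-08).

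The deepest fall with ABA was in UGT72E1, at 4.80, 4.91 and 4.99 TPM with ABA and 57.6, 54.2 and 65.5 TPM in white light, 12.1 times lower (-3.34 ± 0.13, adjusted p = 3.43e-09). UGT72B1 and UGT72E1, both lignin-related, thus changed in opposite directions with ABA. UGT86A1 was at 1.53, 1.59 and 2.25 TPM with ABA, against 23.1, 20.1 and 18.2 TPM under UV-B and 9.55, 10.0 and 11.3 TPM in white light, the 1 tested member called higher with UV-B and lower with ABA. UGT74C1, a glucosinolate S-glucosyltransferase, averaged 32.5 ± 7.7 TPM with ABA and 65.9 ± 4.4 TPM in white light (-1.02 ± 0.14, adjusted p = 0.000102). UGT85A4, UGT72D1 and UGT86A2 fell by 1.00, 0.86 and 0.69 log2 units, and the call of UGT85A4 was lost with TMM-style scaling and without ABA replicate 3 or white-light replicate 3.

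Set directly against ABA in Col-0, UV-B gave 19 tested members higher and 35 lower, that is 26% and 47.9%, against 32.1% and 23.9% of all genes tested. By at least 1 log2 unit 11 were higher and 22 lower, against 8.13% and 7.71% of all genes tested. The members that were higher with UV-B were led by UGT79B3 and UGT91A1 (4.49 ± 0.17 and 4.22 ± 0.14), UGT86A1 (2.95 ± 0.13), UGT78D4 (2.47 ± 0.15) and UGT90A1 (2.41 ± 0.20). The lower ones were led by UGT73C3 (-4.89 ± 0.20) and UGT89B1, then UGT73C4 and UGT91C1 (-3.04 ± 0.13 and -3.04 ± 0.17) and UGT74F2 (-2.86 ± 0.11).

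**Figure D4:**
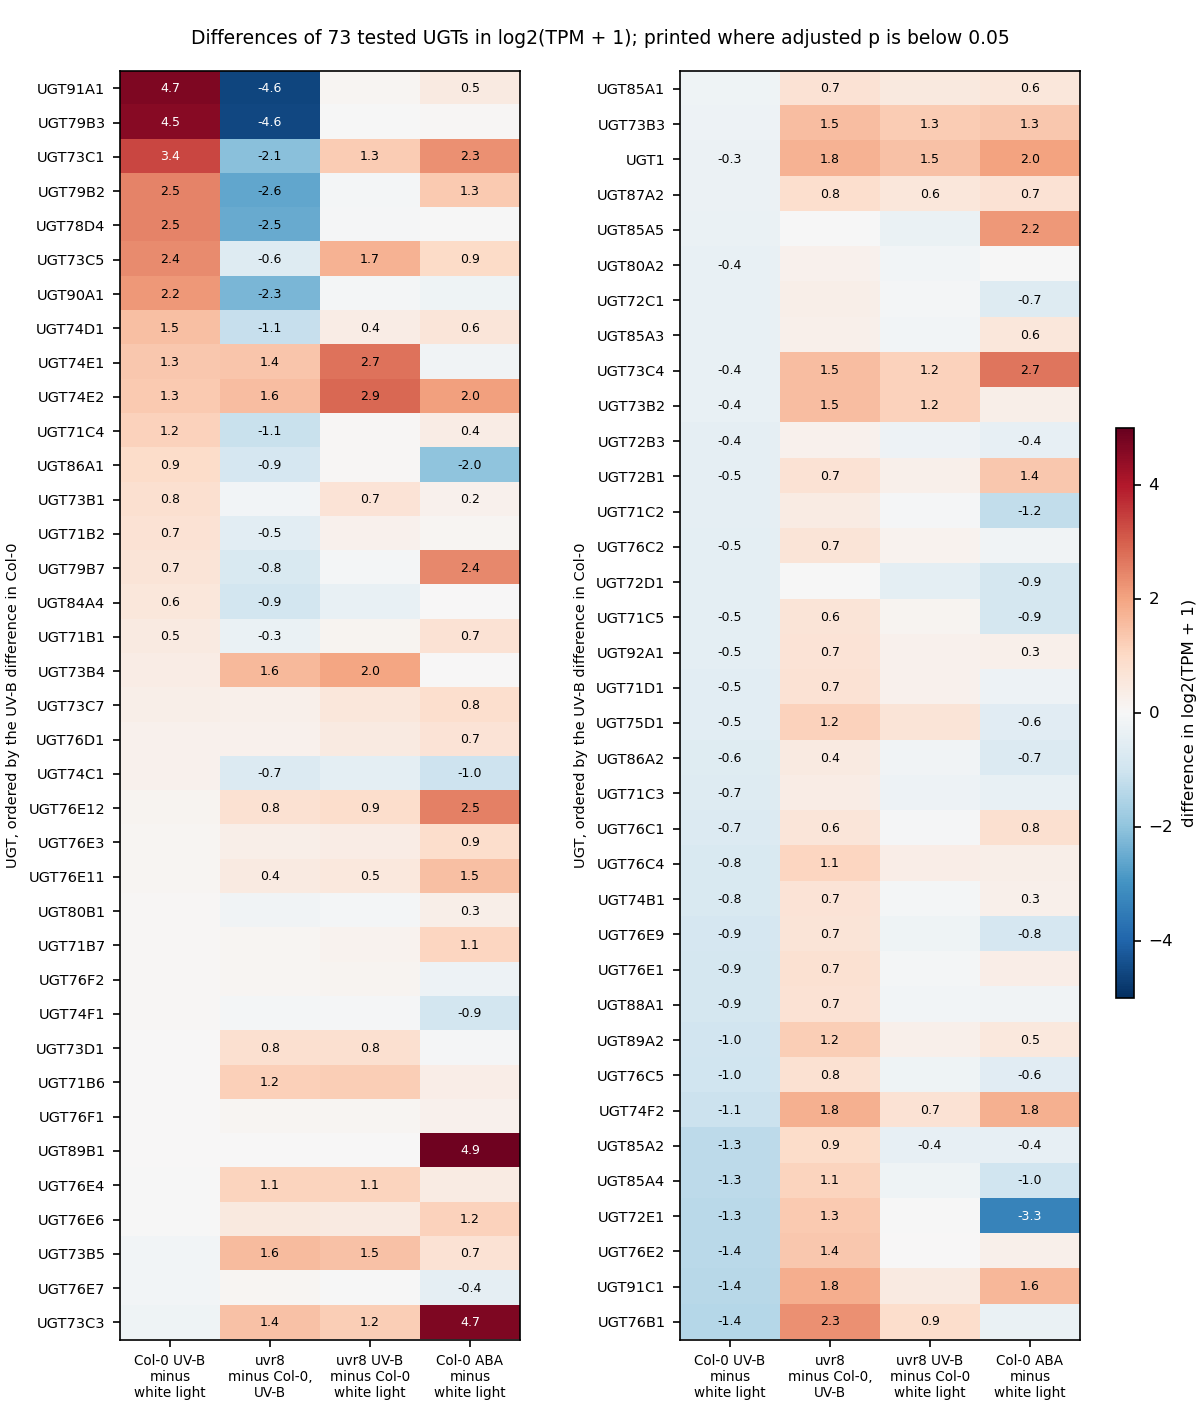
Differences in log2(TPM + 1) of the 73 tested members in 4 comparisons, with red for higher and blue for lower in the group named first, and a number where the limma adjusted p is below 0.05. Rows run from the highest UV-B difference in Col-0, UGT91A1 at 4.7, to the lowest, UGT76B1 at -1.4, and the third column, irradiated uvr8 against white-light Col-0, holds 20 positive numbers and 1 negative one.

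By role, the members assigned here as ABA glucosyltransferases did not move together. These enzymes make ABA glucose ester, the storage form of the hormone. UGT1 was not assigned this role and is not counted. Of the 3 tested members with the role, UGT71B7 rose with ABA. It was at 26.2, 28.5 and 26.2 TPM with ABA and 11.8, 12.3 and 12.3 TPM in white light (1.09 ± 0.11, adjusted p = 5.91e-06). UGT71C5 fell, at 14.4, 17.1 and 16.2 TPM with ABA and 26.9, 30.6 and 32.6 TPM in white light (-0.87 ± 0.09, adjusted p = 7.7e-06). UGT71B6 was between 1.15 and 1.99 TPM with ABA and between 0.30 and 2.40 TPM in white light and was not called (adjusted p = 0.41), and UGT71B8 was below the filter. Of the beta-glucosidases that release ABA from the ester, BGLU18 averaged 764 ± 171 TPM with ABA and 496 ± 85 TPM in white light (0.61 ± 0.17, adjusted p = 0.0104), with libraries from 653 to 960 TPM and from 425 to 589 TPM. BGLU18 fell with UV-B (-0.92 ± 0.17, adjusted p = 0.00132), and BGLU10 rose with ABA and with UV-B (0.46 ± 0.09 and 0.59 ± 0.09). BGLU33 was not called with ABA (-0.08 ± 0.12, limma adjusted p = 0.557) or with UV-B (-0.29 ± 0.12, limma adjusted p = 0.0632).

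Among the 8 tested members with roles in salicylate, jasmonate or defence, none rose and 4 fell with UV-B in Col-0, 5 were higher and none lower in uvr8 than in Col-0 under UV-B, and 4 rose and 1 fell with ABA. The share that fell with UV-B was 50%, against 27.8% of all genes tested, and the share higher in uvr8 was 62.5%, against 32.8%. With ABA 50% rose and 12.5% fell, against 15.2% and 39.4% of all genes tested. Their median differences in log2(TPM + 1) were -0.46, 1.14 and 0.52, against -0.15, 0.20 and -0.24 over all genes tested. The salicylate enzymes UGT74F1 and UGT74F2 are tandem neighbours that differed with ABA: UGT74F1 was at 1.45, 0.90 and 1.44 TPM with ABA and 3.82, 3.11 and 2.85 TPM in white light (-0.92 ± 0.16, adjusted p = 0.000496), while UGT74F2 rose 3.48-fold. UGT76E1, a jasmonate-related glucosyltransferase, was at 2.33, 1.18 and 2.04 TPM under UV-B and 3.59, 3.88 and 4.92 TPM in white light (adjusted p = 0.00385). UGT71C3, which acts on methyl salicylate, fell with UV-B (adjusted p = 0.00612), with 0.74 to 1.28 TPM under UV-B and 1.85 to 2.45 TPM in white light. UGT76D1, which acts on dihydroxybenzoates, was at 0.88, 1.37 and 1.93 TPM with ABA and 0.48, 0.36 and 0.51 TPM in white light (adjusted p = 0.0161), and this call was lost without ABA replicate 3 or white-light replicate 2.

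The auxin members also split. UGT74D1 and UGT74E2 were raised by UV-B and by ABA in Col-0, and in uvr8 UGT74D1 was lower and UGT74E2 higher than in Col-0 under UV-B. UGT75D1, which acts on indole-3-butyric acid, was at 170, 199.9 and 245 TPM in uvr8 under UV-B, 93.3, 82.7 and 95.2 TPM in Col-0 under UV-B, 64.2, 113 and 95.6 TPM with ABA and 128, 123 and 139.5 TPM in white light. Its uvr8 libraries were all above the others (1.16 ± 0.18 against Col-0 under UV-B, adjusted p = 0.000273), and its falls with UV-B and ABA (adjusted p = 0.0348 and 0.0205) were not called after TMM-style scaling. UGT76F1, which acts on the auxin precursor indole-3-pyruvate, stayed between 0.87 and 1.74 TPM in all 12 libraries. UGT84B1 and UGT84B2 were below the filter.

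For cytokinins, UGT73C1 rose with UV-B and ABA, whereas the N-glucosyltransferases UGT76C1 and UGT76C2 fell with UV-B. UGT76C1 was at 7.43, 6.23 and 7.97 TPM under UV-B, 23.2, 18.4 and 23.8 TPM with ABA and 12.7, 11.2 and 12.4 TPM in white light, so that it was low with UV-B and high with ABA and the 3 groups did not overlap. UGT85A1 was at 230, 215 and 217 TPM in uvr8 under UV-B, 137, 120 and 141 TPM in Col-0 under UV-B, 189, 271 and 236 TPM with ABA and 129, 174 and 166 TPM in white light. It was higher in uvr8 than in Col-0 under UV-B (0.73 ± 0.14, adjusted p = 0.00101), and its UV-B and white-light libraries overlapped in Col-0 (adjusted p = 0.211).

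Of the 2 glucosinolate S-glucosyltransferases, UGT74B1 fell with UV-B and UGT74C1 was not called with it. With ABA UGT74B1 was called higher and UGT74C1 lower. Under UV-B UGT74B1 was higher and UGT74C1 lower in uvr8 than in Col-0. UGT74B1 was at 72.9, 67.5 and 70.9 TPM in Col-0 under UV-B and 115, 125 and 124 TPM in white light (-0.78 ± 0.08, adjusted p = 1.07e-05). The nicotinate N-glucosyltransferases UGT76C4 and UGT76C5 both fell with UV-B, by 0.76 and 0.99 log2 units, at levels below 6 TPM. The sterol glucosyltransferases UGT80A2 and UGT80B1 make steryl glucosides of membranes. UGT80A2 was called lower with UV-B (-0.35 ± 0.13, adjusted p = 0.0458), a call lost under most alternatives, TMM-style scaling among them. UGT80B1 was called higher with ABA (0.29 ± 0.10, adjusted p = 0.026), a call lost with only the groups compared and without replicate 1 or 3 of either group. Over the 12 libraries UGT80A2 stayed between 11.3 and 19.2 TPM and UGT80B1 between 14.5 and 23.3 TPM. UGT87A2, linked to flowering time and to drought and salt tolerance, averaged 125 ± 5 TPM in uvr8 under UV-B, 70.3 ± 13.9 TPM in Col-0 under UV-B, 141 ± 15 TPM with ABA and 84.9 ± 6.6 TPM in white light, and it rose with ABA (adjusted p = 0.00045). The monolignol genes UGT72E2 and UGT72E3 were below the filter.

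With genes at most 10000 bases apart counted as neighbours in TAIR10.1, 60 of the 97 members lay in 21 tandem arrays, and 15 arrays had at least 2 tested members. With UV-B all tested members of 4 of these 15 arrays were called in 1 direction, and 3 arrays held calls in both directions. With ABA the numbers were 1 and 4. Of all genes tested, 12.3% were called higher and 27.8% lower with UV-B, and 15.2% and 39.4% with ABA. Many of these arrays have only 2 tested members, and no such count was made for other neighbouring genes. Whether neighbouring UGTs were called alike more or less often than other neighbours was therefore not tested. The UGT73C array on chromosome 2, from 15410376 to 15425129, holds UGT73C1, UGT73C2, UGT73C4, UGT73C3, the left-out UGT73C6 and UGT73C5 in that order on the minus strand. Its outer genes UGT73C1 and UGT73C5 rose with UV-B by 3.36 and 2.37 log2 units, while UGT73C3 and UGT73C4 between them differed by -0.22 ± 0.20 (not called) and -0.38 ± 0.13 (called lower, not after TMM-style scaling) with UV-B and rose with ABA by 4.67 and 2.66. In the UGT85A array on chromosome 1, UGT85A5 rose by 2.17 with ABA, and its neighbours UGT85A2 and UGT85A3 differed by -0.40 ± 0.09 and 0.57 ± 0.21, calls that were lost under TMM-style scaling for UGT85A2 and with a pseudocount of 0.1 for UGT85A3. The 2 genes of the UGT79B2 and UGT79B3 pair on chromosome 4, from 13759800 to 13765064, both rose with UV-B, and with ABA UGT79B2 rose (1.32 ± 0.09) and UGT79B3 was not called (0.06 ± 0.17). All 4 tested genes of the UGT76C array on chromosome 5, on cytokinins and nicotinate, fell with UV-B and were higher in uvr8 than in Col-0 under UV-B, and the UV-B call of UGT76C2 was lost with TMM-style scaling.

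**Figure D5:**
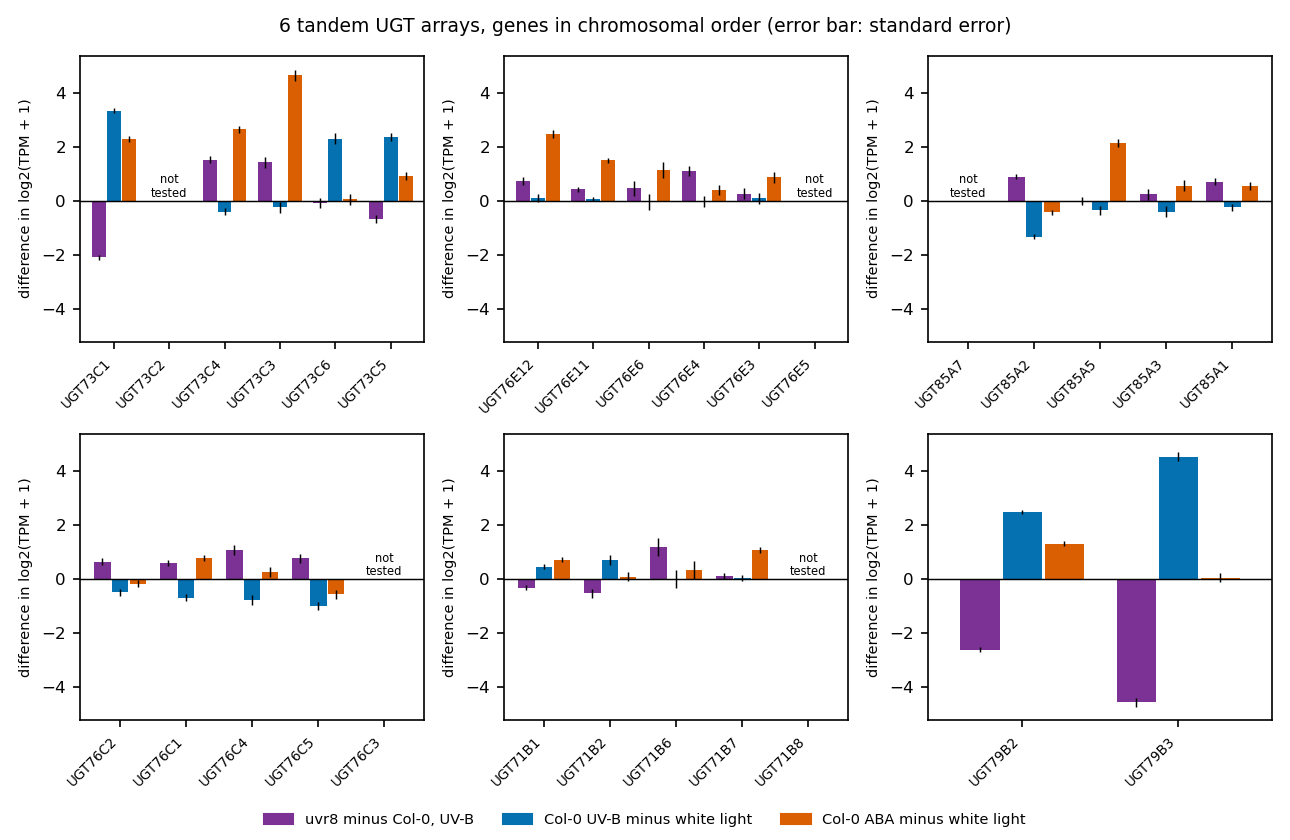
Differences in log2(TPM + 1) with standard errors for the genes of 6 tandem arrays, in chromosomal order from left to right and not to scale in distance. Purple bars are uvr8 against Col-0 under UV-B, blue bars UV-B and orange bars ABA against white light in Col-0. In the UGT73C array the blue bars are tall at UGT73C1, the left-out UGT73C6 and UGT73C5 and the orange bars at UGT73C3 and UGT73C4.

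Of the 21 tested enzymes that supply UDP-sugars, 2 rose and 13 fell with UV-B, that is 9.52% and 61.9%, against 12.3% and 27.8% of all genes tested. With ABA 7 rose and 8 fell, that is 33.3% and 38.1%, against 15.2% and 39.4%. In uvr8 14 were higher and 2 lower than in Col-0 under UV-B, that is 66.7% and 9.52%, against 32.8% and 11.1%. None was called by limma between irradiated uvr8 and white-light Col-0 (UGE5 had an unadjusted p = 0.0341), where 3.83% and 1.28% of all genes tested were called higher and lower. The rise with UV-B was in RHM1, which makes UDP-rhamnose, the donor for flavonol rhamnosides, at 786, 733 and 763 TPM under UV-B and 117, 129 and 126 TPM in white light (2.61 ± 0.08, adjusted p = 2.26e-10), and in UGE2, a UDP-glucose 4-epimerase (0.51 ± 0.09, adjusted p = 0.000596). RHM1 was at 137, 132 and 124 TPM in uvr8 under UV-B. RHM2, RHM3 and UER1, which also act in rhamnose supply, were called lower with UV-B in Col-0 (-0.57 ± 0.10, -0.43 ± 0.08 and -0.52 ± 0.12). With ABA the epimerase gene UGE5 rose to 38.4, 32.5 and 43.7 TPM, against 2.87, 4.79 and 3.41 TPM in white light (3.07 ± 0.26, adjusted p = 1.5e-06). UGP1, a UDP-glucose pyrophosphorylase gene listed as UGP in the files, rose with ABA as well (0.62 ± 0.10, adjusted p = 0.000232). The gene called UGP2 here (AT5G17310), which the files list as UGP1, fell with ABA (-0.50 ± 0.10, adjusted p = 0.00155).

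The median of all genes tested lay at -0.15 with UV-B, 0.20 for uvr8 against Col-0 and -0.24 with ABA, so part of a small difference in a member can be this common shift. TMM-style scaling brought these medians to within 0.02 of 0, and no call of a tested member turned to the opposite direction. In 22 tested members the exons overlap those of another gene, 19 of them on the opposite strand, as in UGT74D1, UGT76E12, UGT76E11, UGT71B2, UGT71B6, UGT76E1 and UGT85A4. No source used here states the strand setting of the counting, so such values are uncertain. The antisense gene over UGT1 was listed at 0 in every library, the one over UGT74D1 never passed 3.41 TPM, and the one over UGT85A4 ran from 3.2 to 11.7 TPM, where UGT85A4 ran from 0.81 to 7.62 TPM. Of the 19 overlaps with a gene that has values, 17 were with a gene at 1 TPM or more in some library. The antisense gene over UGT71B2 ran from 7.62 to 24.7 TPM, where UGT71B2 ran from 8.06 to 18.4 TPM. UGT74C1 and UGT75D1 share 265 and 210 exon bases with antisense genes at 19.5 to 59.4 TPM and 69.8 to 115.3 TPM.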

How the data were processed

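RNA of whole seedlings was made into TruSeq libraries and sequenced as paired reads of 150 bp, per the labels' protocols. The deposited tables hold 1 TPM value per gene and library. The submitters' processing notes name TAIR10, and no source used here gives the aligner, counter, strand setting or filters.

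From the deposited TPM, limma 3.58.1 in R 4.3.3 was fitted to log2(TPM + 1) with a mean-variance trend and 4 group means over 12 libraries. Tested were the 19922 genes that reached 1 TPM in 3 or more libraries, with Benjamini-Hochberg adjustment and a threshold of 0.05. The fit was tested on simulated data. The 5 comparisons share libraries and are not independent.

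The members and lists were chosen with earlier results of these data known. Members were named where, for UV-B, uvr8 or ABA, they held one of the 8 highest or 8 lowest called differences, provided the group ranges were apart and the higher group averaged 5 TPM or more. Members with an assigned role and the highest by mean were named too. UGT71B2, UGT73C7, UGT73D1, UGT74E1, UGT76E11 and UGT85A3 were named after their values were seen.

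Positions, promoters and exon overlaps came from RefSeq TAIR10.1, to which all 97 members matched by locus identifier. Exons were compared with blastn, and no member had a copy 95% or more identical across 150 or more bases. Alternatives were TMM-style scaling, a pseudocount of 0.1, no low-value filter, no trend, a replicate block, only the groups compared, a minimum change of 1 log2 unit, and each library left out.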

Additional observations from a re-analysis of the deposited data

How the results depend on the processing

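Of the calls, 38 of 45 with UV-B, 47 of 53 for uvr8 against Col-0 under UV-B, 37 of 51 with ABA, 16 of 21 for irradiated uvr8 against white-light Col-0 and 49 of 54 for UV-B against ABA held under each of 12 alternatives other than the minimum change. With a change of at least 1 log2 unit the counts higher and lower were 11 and 7 with UV-B, 20 and 8 for uvr8 against Col-0 under UV-B, 17 and 4 with ABA, 12 and 0 for irradiated uvr8 against white-light Col-0, and 11 and 22 for the direct contrast of UV-B with ABA. With TMM-style scaling 10 members were lower with ABA and 2 in irradiated uvr8 against white-light Col-0, and the replicate block also gave 2 lower there. Leaving out 1 library at a time gave 0 to 0 lower and 16 to 19 higher in that comparison, 17 to 17 higher and 23 to 31 lower with UV-B, 37 to 38 higher and 13 to 15 lower for uvr8 against Col-0 under UV-B, 30 to 32 higher and 14 to 15 lower with ABA, and 19 to 20 higher and 31 to 34 lower for UV-B against ABA. The cause of these changes was not tested. Same-numbered replicates did not pair: 18 correlations ran from -0.13 to 0.26, 7 were above 0.1, and 9 of 18 were highest with their own number. TPM keeps no depth, so what depth limits is unknown.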
